A study of Mus musculus with 40 samples.

Results

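Left somatomotor cortices collected 4 h after the last head injury were compared with cortices collected 24 h after it. All animals were female 3xTg-AD mice aged 2-4 months, a triple transgenic model of Alzheimer's disease on a C57BL/6J background, so every group shares the same transgenes. Under isoflurane, a weight was dropped onto the closed skull once (1xCHI), once daily for 3 days (3xCHI) or once daily for 5 days (5xCHI). Of the 40 samples in the series, 20 were used, namely the 8 samples taken at 4 h and the 12 taken at 24 h after the last of 1, 3 or 5 injuries. The 4 h samples were 3 after 1xCHI, 2 after 3xCHI and 3 after 5xCHI, and the 24 h samples were 4 after each number. Sample 30, a 4 h sample after 3xCHI, was left out. The 4 sham samples are given as background only, since their label places them at 0 h and none is labelled as matched to 4 h or 24 h.

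The question of this comparison is which transcripts differ between the acute and the next-day cortex whatever the number of injuries. After a mechanical insult, neurons first transcribe immediate early genes such as Fos and Npas4, whose RNA is short-lived, and these encode factors that drive later genes. Adrenal glucocorticoids released under stress act through a nuclear receptor to induce genes such as Fkbp5, and astrocytes respond over hours to days by raising structural and signalling genes such as Gfap. Circadian clock genes cycle with the hour of day in most tissues.

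No gene passed the test at an adjusted p under 0.05, which is 0 of 15224 features (0%) with edgeR's quasi-likelihood test and injury number as a block. With DESeq2, 2 features passed (0.0131%), the predicted gene Gm11627 and Daam2, both higher at 4 h. At an unadjusted p under 0.05 edgeR counted 403 features (2.65%), of which 250 were higher at 4 h (1.64%) and 153 lower (1.00%), and DESeq2 counted 461 (3.03%). The median log2 difference, 4 h minus 24 h, was -0.0014 with a median standard error (SE) of 0.10, and 49.4% of features were above 0. For 14964 features (98.3%) the 95% confidence interval lay within 1 log2 unit on either side of 0. In simulated counts with the same samples, 94% of genes changed by 1 log2 unit and 64% of those changed by 0.5 were recovered over the 15224 features. That run also called 13 unchanged genes. Its counts were drawn independently for each gene, without structure shared between genes of a sample, so it cannot show that such changes were absent here.

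**Figure D1:**
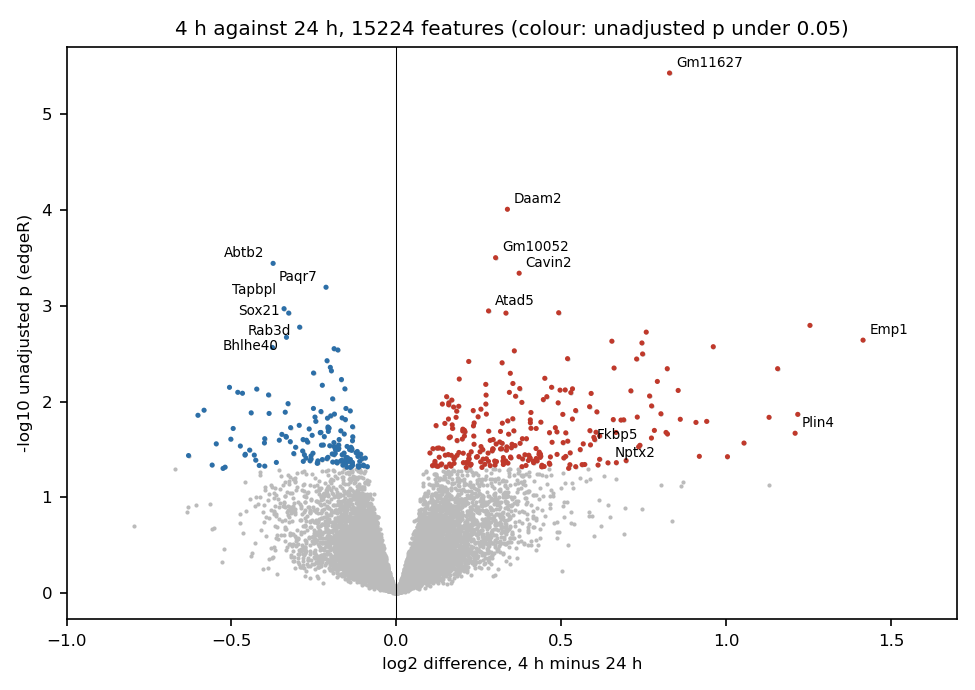
The log2 difference, 4 h minus 24 h, of each of 15224 features (x axis) is plotted against the unadjusted p of edgeR as -log10 (y axis), with red for 250 features higher and blue for 153 lower at an unadjusted p under 0.05. Gm11627 stands highest, and Emp1 has the largest labelled difference, 1.42; none passed the adjusted threshold.

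Gm11627 had the smallest p of all features. It is annotated as a protein-coding gene of unstated function (ENSMUSG00000078640; GRCm38 chromosome 11, 102576398 to 102579461, minus strand), and no other annotated gene overlaps it. Levels below are CPM, a gene's count scaled by the size of its library. After 1xCHI it stood at 3.42, 4.52 and 3.24 CPM at 4 h and at 1.92, 2.07, 2.10 and 2.23 CPM at 24 h. After 3xCHI the 4 h samples held 3.70 and 3.25 CPM and the 24 h samples 2.20, 1.17, 1.78 and 1.44 CPM. All these 4 h values lay above all these 24 h values. After 5xCHI the 4 h samples held 2.62, 2.82 and 3.00 CPM and the 24 h samples 1.77, 2.22, 1.27 and 2.02 CPM, again without overlap. The 4 sham samples ranged from 1.45 to 2.24 CPM, within or near the 24 h range. The log2 difference was 0.83 (SE 0.13, 95% interval 0.55 to 1.10), with an adjusted p of 0.056 by edgeR and 4.04e-05 by DESeq2. Taken by injury number, the difference was 0.83 with 1xCHI, 1.08 with 3xCHI and 0.62 with 5xCHI. At 30 min after injury the median was 2.59 CPM.

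The other 4 genes with the smallest p among those higher at 4 h differed by less, and none passed with edgeR. Daam2 encodes a formin that binds Dishevelled in Wnt signalling, and it ranged from 124.6 to 178.5 CPM at 4 h (median 137.6) and from 96.8 to 133.3 CPM at 24 h (median 108.4). The ranges overlapped, while all 8 of the 4 h samples lay above the 24 h median. Its log2 difference was 0.34 (SE 0.069), with an adjusted p of 0.746 by edgeR and 0.029 by DESeq2, and the sham samples ranged from 108.8 to 138.9 CPM. Cavin2, a coat protein of caveolae, ranged from 12.0 to 17.5 CPM at 4 h and from 9.21 to 12.5 CPM at 24 h (log2 difference 0.37, SE 0.089). Atad5, which helps to unload the PCNA clamp from DNA, ranged from 6.08 to 7.88 CPM at 4 h and from 4.73 to 6.05 CPM at 24 h, so the groups did not overlap (log2 difference 0.28, SE 0.074). Gm10052 is annotated as a processed pseudogene that lies opposite Ccr9, so reads may be shared with its parent gene, and its log2 difference was 0.30 (SE 0.069).

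The 5 genes with the smallest p among those lower at 4 h also failed the adjusted threshold, each with an adjusted p of 0.999 by edgeR. Abtb2, an ankyrin repeat and BTB domain protein, ranged from 5.91 to 10.2 CPM at 4 h (median 8.72) and from 8.36 to 13.5 CPM at 24 h (median 11.0). The ranges overlapped, and none (0) of the 4 h samples lay above the 24 h median. Its log2 difference was -0.37 (SE 0.087) and its sham range 9.44 to 14.6 CPM. Paqr7, a membrane progestin receptor, had a log2 difference of -0.21 (SE 0.053). Tapbpl, a peptide editor of MHC class I molecules whose gene overlaps Vamp1 on the other strand, had -0.34 (SE 0.089). Sox21, a SOX family transcription factor, had -0.33 (SE 0.087), and Rab3d, a small GTPase of regulated secretion, had -0.29 (SE 0.081).

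**Figure D2:**
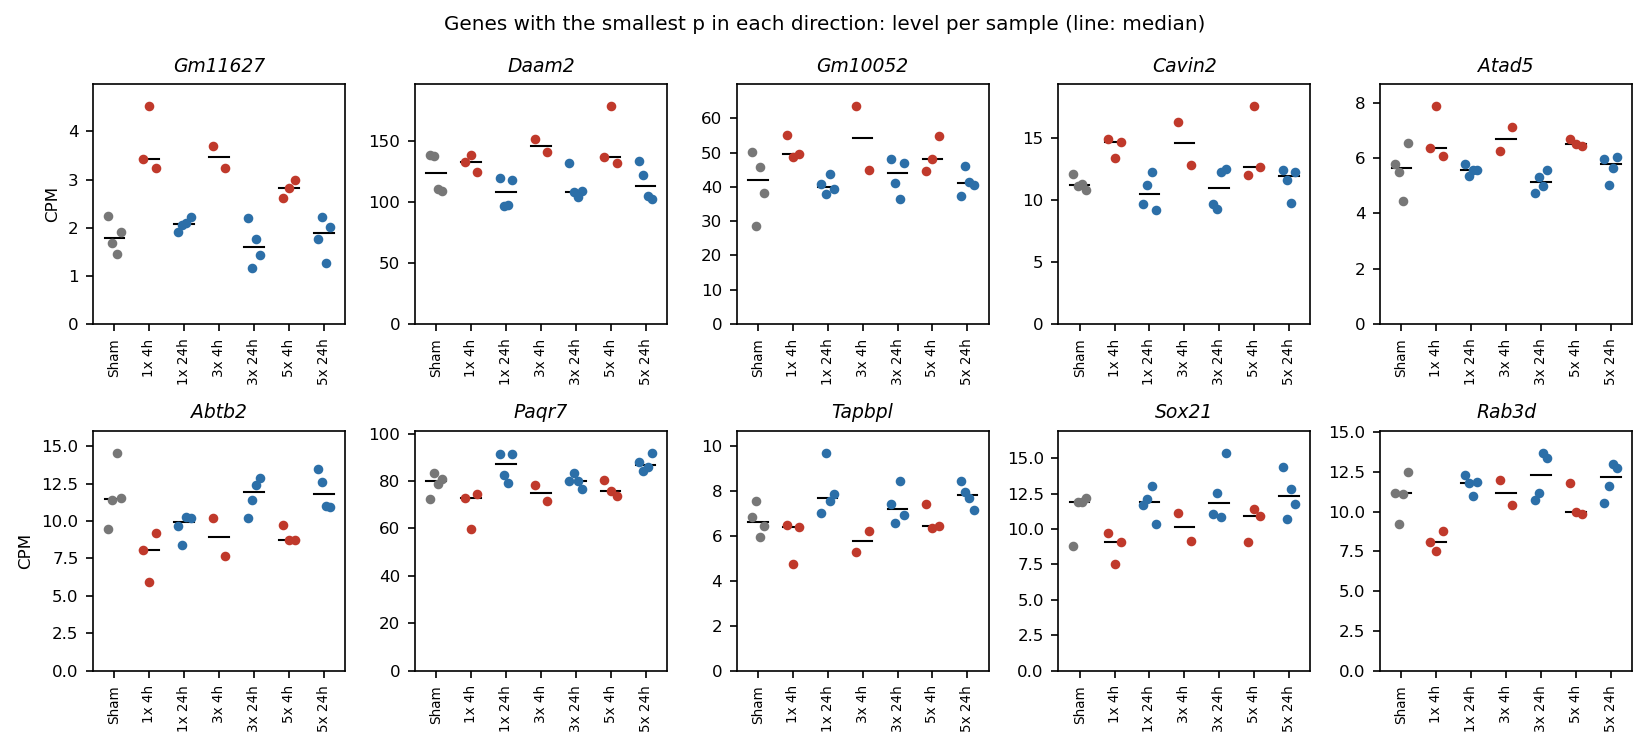
Each panel gives the CPM (y axis, from 0) of 1 gene in each sample of sham, 4 h and 24 h groups after 1, 3 and 5 injuries (x axis), with a line at each group's median. In the top row the red 4 h points sit above most blue 24 h points, without overlap for Gm11627 and Atad5, and in the bottom row most sit below.

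The clock genes were all measurable, and 19 of the 23 listed members were lower at 4 h, with a list median of -0.097 against -0.0014 over all features. At an unadjusted p under 0.05 there were 2 members, both lower, beside 1.00% of all features lower, and none (0) passed the adjusted threshold. By injury number 7 of 23 were higher at 4 h with 1xCHI (all features 51.2%), 11 of 23 with 3xCHI (47.8%, all features 49.9%) and 3 of 23 with 5xCHI (all features 45.9%). With 1 sample left out in turn these counts ran from 6 to 11, from 7 to 12 and from 2 to 6. Pooled members at an unadjusted p under 0.05 then numbered 1 to 5, the most without sample 36 and the fewest without 7 samples, among them 15 and 16. All features at such a p numbered 1000 without sample 36, against 403 in the main fit. Bhlhe40 encodes a transcriptional repressor that acts on E-box elements and is induced by many stimuli. It ranged from 76.5 to 149.3 CPM at 4 h (median 116.8) and from 108.9 to 186.2 CPM at 24 h (median 152.2). None (0) of the 4 h samples reached the 24 h median, and its log2 difference was -0.33 (SE 0.095, unadjusted p = 0.00213). Cry2, a core repressor of the clock, had -0.15 (SE 0.069, unadjusted p = 0.0382). Per3, a period gene, lay in the other direction at 0.23 (SE 0.12, unadjusted p = 0.0752), and its 4 h samples ranged from 50.2 to 100.8 CPM against 45.3 to 83.0 CPM at 24 h. Of the other core members, Nr1d1 stood at -0.16, Per2 at -0.17, Arntl at -0.095, Per1 at -0.086 and Dbp at -0.082. Injuries were given daily, and the hour of day of collection is not given in the sources used here, so time since injury, time since anaesthesia and hour of day cannot be told apart.

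Among glucocorticoid-induced genes and their receptors, 20 of 23 tested members were higher at 4 h, with a list median of 0.19. None (0) passed the adjusted threshold, and 2 had an unadjusted p under 0.05, both higher, beside 1.64% of all features higher. Plin4, a lipid droplet coat protein, had a log2 difference of 1.21 (SE 0.48, unadjusted p = 0.0214). Fkbp5, a co-chaperone that damps the glucocorticoid receptor, had 0.59 (SE 0.25, unadjusted p = 0.0283). Mt2, a metal-binding metallothionein, had 0.59 (SE 0.30, unadjusted p = 0.0646), and the leucine zipper gene Tsc22d3 had 0.21.

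The direction of this list varied with the number of injuries. After 1xCHI 22 of the 23 members were higher at 4 h (median 0.36, all features 51.2% higher), and after 3xCHI 20 of 23 were (median 0.40, all features 49.9%). After 5xCHI none (0) of the 23 was higher (median -0.23, all features 45.9%). Plin4 held 16.0, 29.5 and 14.5 CPM at 4 h after 1xCHI and 3.02, 2.46, 7.95 and 3.49 CPM at 24 h, with no overlap. After 3xCHI it held 42.2 and 37.5 CPM at 4 h and 8.31, 12.7, 12.1 and 13.9 CPM at 24 h, again with no overlap. After 5xCHI it held 17.8, 50.5 and 18.8 CPM at 4 h and 80.8, 50.7, 4.26 and 6.71 CPM at 24 h. The 24 h samples after 5xCHI thus divided, with samples 11 and 12 above all 3 of the 4 h samples and samples 33 and 34 below them.

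Fkbp5 divided in the same samples, at 70.7 and 67.4 CPM in samples 11 and 12 and at 22.9 and 25.8 CPM in samples 33 and 34, while its 4 h values after 5xCHI were 31.2, 54.8 and 33.1 CPM. The interaction of time with injury number had an unadjusted p of 0.0565 for Plin4, 0.0338 for Fkbp5, 0.211 for Mt2 and 0.0403 for Tsc22d3, beside 2.10% of all features under 0.05, and an adjusted p of 1 by edgeR for Plin4, Fkbp5 and Mt2. The difference of the whole list between injury numbers was not tested. Samples 11 and 12 also stood apart by other measures, sample 11 by a microglial marker sum of 1188 CPM (408.5 to 446.4 CPM in the other 24 h samples after 5xCHI) and sample 12 by choroid plexus markers (410.5 CPM, the highest at 24 h). After 5xCHI, the number of members higher at 4 h became 13 of 23 without sample 11 (median 0.026) and 6 of 23 without sample 12, and over all fits with 1 sample left out it ran from 0 to 13. A fit without both samples 11 and 12 was also made after their high Plin4 and Fkbp5 levels had been seen, and more members of the list then had a low p. Because that pair was picked by the levels under test, the fit supports nothing and its values are not given. Within the samples numbered 1 to 18 the pooled list had 12 of 23 members higher (median 0.0072), and within those numbered 19 to 40 it had 21 of 23 (median 0.43). The latter fit is also without samples 11 and 12, so it cannot be told apart from that choice, and nothing is drawn from it. It left out 3xCHI, which had no 4 h sample there, and held 1 sample at 4 h and 2 at 24 h after each of 1xCHI and 5xCHI. With 1 sample left out in turn, the members with an unadjusted p under 0.05 ran from 1 (without sample 1, 16, 18 or 28) to 9 (without sample 11), with list medians of 0.097 to 0.25. Without sample 11, 512 of 15224 features were higher at such a p, against 250 in the main fit. With the number range as a covariate 16 of 23 were higher (median 0.084). Mt2 differed by 0.95 without sample 11.

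**Figure D3:**
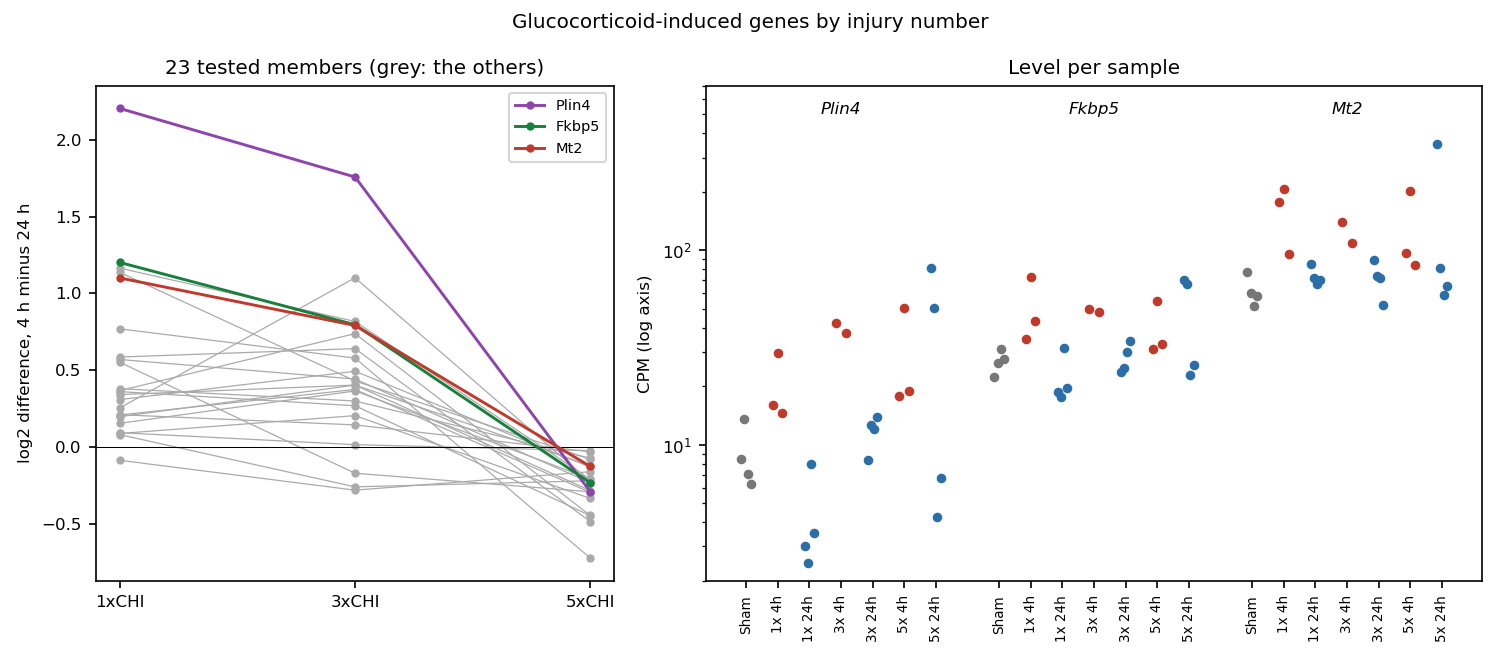
The left panel gives the log2 difference, 4 h minus 24 h (y axis), of 23 glucocorticoid-induced and receptor genes after 1, 3 and 5 injuries, and the right panel the CPM of Plin4, Fkbp5 and Mt2 in each sample (log axis, grey sham, red 4 h, blue 24 h). All 23 lines end below 0 at 5xCHI, where 2 of the blue Plin4 points, 80.8 and 50.7 CPM, lie above the red ones.

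Of 25 tested immediate early genes, 10 were higher and 15 lower at 4 h, with a median of -0.029 and a range of -0.46 to 0.41, and none (0) had an unadjusted p under 0.05 (0 to 2 with 1 sample left out, the most without sample 11). With 1 sample left out, 7 (without sample 15) to 16 (without sample 26) were higher, and the list median ran from -0.069 to 0.022. The smallest p belonged to 3 transcription factors of neuronal activity, Egr3 at 0.31 (SE 0.17), Nr4a2 at -0.46 (SE 0.29) and Egr1 at -0.29 (SE 0.19), and all 3 overlapped between the times. Nr4a2 differed by -0.28 without sample 18 and by -0.23 without sample 33. Maff, a small Maf factor, had the highest value, 0.41 (SE 0.37). Fos, an AP-1 subunit, ranged from 9.60 to 29.5 CPM at 4 h (median 15.3) and from 9.50 to 43.8 CPM at 24 h (median 15.9), a log2 difference of -0.14 (SE 0.20). Fosb, its paralogue, differed by 0.14 (SE 0.27), and Npas4, a neuronal activity factor, by 0.17 (SE 0.21), or 0.099 without sample 11 and 0.29 without sample 1. The 30 min samples are set beside these only for scale, since they were compared with the same 24 h samples. There Fos had a median of 76.7 CPM and a log2 difference from 24 h of 2.53 (adjusted p = 0.0328 by edgeR), and Fosb a median of 61.1 CPM and 2.99 (adjusted p = 0.0312 by edgeR). Npas4 differed by 3.08 at 30 min and did not pass (adjusted p = 0.14 by edgeR). Of all features, 0.0723% passed in that comparison.

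Of 24 tested effector genes of neuronal activity, 16 were higher at 4 h (median 0.088), and 2 had an unadjusted p under 0.05, beside 1.64% of all features higher. By injury number 18 of 24 were higher with 1xCHI and 19 of 24 with 5xCHI, but 6 of 24 with 3xCHI (median -0.12, all features 49.9%). With 1 sample left out, 0 (without sample 16, 17 or 18) to 4 (without sample 36) had an unadjusted p under 0.05. All features at such a p numbered 1000 without sample 36, against 403 in the main fit. The list median fell to 0.039 without sample 10. Ptgs2, the inducible prostaglandin synthase, ranged from 8.89 to 19.1 CPM at 4 h and from 6.62 to 13.5 CPM at 24 h (log2 difference 0.36, SE 0.15, unadjusted p = 0.0288). Nptx2, a secreted pentraxin that clusters AMPA receptors, differed by 0.64 (SE 0.30, unadjusted p = 0.0436), with 0.86 after 1xCHI, -0.36 after 3xCHI and 1.09 after 5xCHI. Its highest values were 116.5 CPM in sample 16 and 92.1 CPM in sample 10, and the other 4 h samples, 27.8 to 35.4 CPM, lay within the 24 h range of 9.82 to 47.5 CPM. It differed by 0.35 without sample 16 and by 0.38 without sample 10. Arl4d, a small GTPase, differed by 0.034 (SE 0.15) between 4 h and 24 h and by 1.50 between 30 min and 24 h (adjusted p = 0.0312 by edgeR). Negative feedback genes of the MAPK cascade gave 4 members higher and 9 lower of 13 and none (0) with an unadjusted p under 0.05. With 1 sample left out, 3 (without sample 36) to 7 (without sample 1, 16 or 17) were higher, and the list median ran from -0.079 to 0.016. The MAPK phosphatase Dusp1 differed by -0.17 (SE 0.13), by -0.25 without sample 15 and by -0.094 without sample 26.

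**Figure D4:**
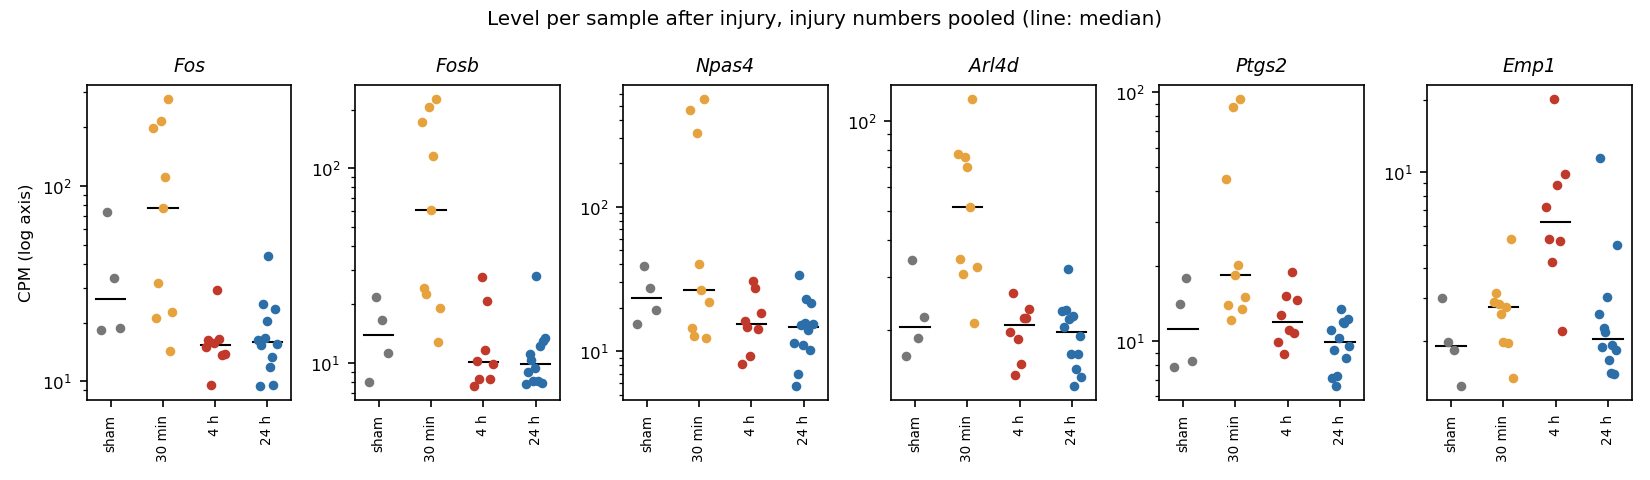
CPM (log axis) of 6 genes is given for each sham, 30 min, 4 h and 24 h sample with injury numbers pooled, and a line marks each median. Fos, Fosb, Npas4, Arl4d and Ptgs2 reach their highest values at 30 min, and Emp1 has its highest median, 6.22 CPM, at 4 h.

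In the main fit, the list with the largest median was that of genes assigned to the A2 type of reactive astrocyte. Without sample 11 the pan-reactive astrocyte list, described below, had a larger median (0.95 against 0.59). In the A2 list, 8 of 8 tested members of 12 listed were higher at 4 h, with a median of 0.39. An unadjusted p under 0.05 was found for 4 of them, beside 1.64% of all features higher, and none (0) passed the adjusted threshold. They were Emp1, Cd14, Clcf1 and Ptgs2, the last of which is also 1 of the 2 effector genes above. By injury number 8 of 8 were higher with 1xCHI (3 with an unadjusted p under 0.05), 5 of 8 with 3xCHI (median 0.19) and 6 of 8 with 5xCHI (median 0.26), with 0 at such a p in each of the latter. Of all 15224 features, 273 were higher at such a p with 1xCHI. With 5xCHI the members higher were 2 of 8 without sample 10 and 7 of 8 without sample 11. Emp1, an epithelial membrane protein, ranged from 2.19 to 20.2 CPM at 4 h (median 6.22), from 1.45 to 11.5 CPM at 24 h (median 2.04) and from 1.30 to 3.00 CPM in sham. All 8 of the 4 h samples lay above the 24 h median, and the highest values were those of 5xCHI samples 10 (4 h, 20.2 CPM) and 11 (24 h, 11.5 CPM). Its log2 difference was 1.42 (SE 0.41, 95% interval 0.57 to 2.26, unadjusted p = 0.00228, adjusted p = 0.999 by edgeR). It was 2.07 after 1xCHI, 0.99 after 3xCHI and 1.10 after 5xCHI, and with 1 sample left out it ran from 1.07 to 1.86.

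Cd14, a co-receptor for lipopolysaccharide, differed by 0.74 (SE 0.31, unadjusted p = 0.0286), and Clcf1, a cytokine of the interleukin 6 family, by 0.57 (SE 0.27, unadjusted p = 0.0454). Without sample 10 Cd14 differed by 0.43. Within the samples numbered 1 to 18 all 8 A2 members were higher (median 0.49), and within those numbered 19 to 40, with 3xCHI left out, 7 of 8 were (median 0.18). With 1 sample left out, 1 (without sample 10) to 7 (without sample 11) had an unadjusted p under 0.05, and the list median ran from 0.27 to 0.59 for the same samples. Without sample 11, 512 of 15224 features were higher at such a p, against 250 in the main fit. Of 9 tested pan-reactive members 6 were higher, and Osmr, the oncostatin M receptor, had an unadjusted p under 0.05 (log2 difference 0.73, SE 0.31, unadjusted p = 0.0297), beside 1.64% of all features higher. The members higher were 8 of 9 with 1xCHI (median 0.70), 4 of 9 with 3xCHI and 3 of 9 with 5xCHI (median -0.058), where it was 8 of 9 without sample 11 (median 1.11) and 0 of 9 without sample 10 (median -0.86). With 3xCHI the members higher were 1 of 9 without sample 1 (median -0.69) and 8 of 9 without sample 3 (median 0.18). With 1 sample left out, the pooled count at an unadjusted p under 0.05 ran from 0 (without sample 1, 10, 15, 26, 28 or 36) to 5 (without sample 11, beside 512 of all features higher). The list median ran from -0.11 (without sample 10) to 0.95 (without sample 11). Cd44, a hyaluronan receptor, differed by 0.74 (SE 0.47), by 0.31 without sample 10 and by 1.34 without sample 11. Gfap, the intermediate filament of astrocytes, ranged from 122.5 to 1631 CPM at 4 h (median 280.9) and from 105.2 to 2417 CPM at 24 h (median 201.7), with a log2 difference of 0.17 (SE 0.52). Both highest Gfap values were again those of samples 10 and 11, and without sample 11 the Gfap difference was 0.97, while without sample 10 it was -0.22. Genes of the A1 type had 6 of 11 members higher and a median of 0.029, and 1 of them, Fkbp5, had an unadjusted p under 0.05. By injury number 11 of 11 were higher with 1xCHI (median 0.51), 4 of 11 with 3xCHI (median -0.18) and 2 of 11 with 5xCHI (median -0.22), a difference that was not tested for the list. With 5xCHI 9 of 11 were higher without sample 11 and 0 of 11 without sample 10, and with 1xCHI 6 of 11 without sample 15. With 3xCHI 2 of 11 were higher without sample 1 (median -0.39) and 7 of 11 without sample 3 (median 0.053). Pooled, 3 of 11 were higher without sample 15 (median -0.17) and 10 of 11 without sample 11 (median 0.13).

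Most cytokine transcripts were too low to test, with 21 of 34 listed members left out at low counts. Of the 13 tested, 10 were higher (median 0.068), and 1 had an unadjusted p under 0.05, beside 1.64% of all features higher (0 without sample 10, 2 without sample 11, when 512 of all features were higher at such a p). The list median was 0.015 without sample 10, with 7 of 13 higher, and 0.18 without sample 11. Both tested chemokines were below 0, at -0.023 and -0.047, and the 5 tested interleukins and growth factors had a median of 0.039. Icam1, the leukocyte adhesion molecule of activated endothelium, ranged from 2.37 to 7.40 CPM at 4 h and from 2.07 to 6.24 CPM at 24 h (log2 difference 0.59, SE 0.23, unadjusted p = 0.0201). Irf1 differed by 0.17 (SE 0.11; 0.11 without sample 16) and Socs3, a feedback inhibitor of cytokine receptors, by 0.41 (SE 0.31). Socs3 differed by 0.15 without sample 10 and by 0.72 without sample 11. A wider filter of at least 10 counts in 8 of the 20 samples admitted 13 more listed genes, of which 11 were higher at 4 h and 3 had an unadjusted p under 0.05, all higher, beside 1.85% of all features higher under that filter. The chemokine Ccl4 had a log2 difference of 1.50 (unadjusted p = 0.0168) and Ccl3 one of 1.17 (unadjusted p = 0.0505), both with an adjusted p of 0.999 by edgeR. Their 4 h medians were 13 and 16 counts and their 24 h medians 3 and 7 counts. Il1a had 0.15 (unadjusted p = 0.621), Lif 0.31 (unadjusted p = 0.508) and Cxcl10 0.54 (unadjusted p = 0.32). Steap4, a metalloreductase of the pan-reactive list, had 1.17 (unadjusted p = 0.00302), and B3gnt5, a glycosyltransferase of the A2 list, 0.55 (unadjusted p = 0.0254). Il6 and Tnf had medians of 1 and 2.5 counts at 4 h and 0 and 1.5 counts at 24 h, and were not tested.

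Heat shock genes gave 7 of 20 members higher with a median of -0.0090, integrated stress genes 12 of 17 with a median of 0.025, and cholesterol genes 11 of 22 with a median of -0.0013. Integrated stress genes gave 7 of 17 without sample 10 (median -0.018) and 14 of 17 without sample 11 (median 0.090). Cholesterol genes gave 7 to 15 of 22 with 1 sample left out. Fdft1, squalene synthase, was the cholesterol gene with an unadjusted p under 0.05 (log2 difference 0.16, SE 0.067, unadjusted p = 0.0234), 1 of 22, beside 1.64% of all features higher. Of 11 hypoxia and vascular genes 5 were higher, and Bnip3, a mitophagy receptor, had -0.11 (SE 0.051, unadjusted p = 0.0421), 1 of 11, beside 1.00% of all features lower. Transcripts of the mitochondrial genome, which encode respiratory chain subunits, were higher at 4 h for 12 of 13 members, by a median of 0.12, and none (0) had an unadjusted p under 0.05. The median was 0.067 within the samples numbered 1 to 18, 0.052 within those numbered 19 to 40 and 0.069 with the number range as a covariate, so it was smaller where the numbering was held fixed. With 1 sample left out it ran from 0.085 (without sample 15) to 0.18 (without sample 36, when 6 members had an unadjusted p under 0.05). All features at such a p numbered 1000 without sample 36, against 403 in the main fit. With 5xCHI, 4 of 13 were higher without sample 32. mt-Nd2 ranged from 3562 to 5650 CPM at 4 h and from 3272 to 5138 CPM at 24 h.

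**Figure D5:**
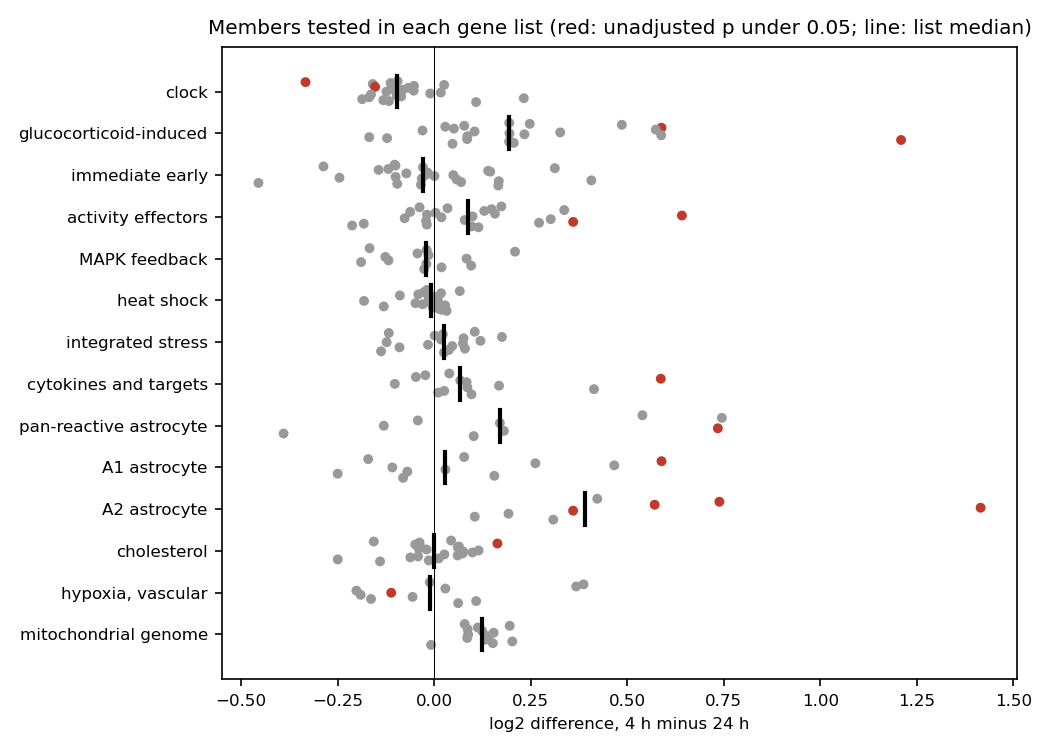
Each point is the log2 difference, 4 h minus 24 h (x axis), of 1 tested member of a gene list (rows), red where the unadjusted p was under 0.05, and the line is the list median. The clock list has a median of -0.097, the glucocorticoid list 0.19 and the A2 astrocyte list 0.39, and Emp1 is the point farthest to the right.

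Within each injury number no gene passed the adjusted threshold with edgeR. The counts at an unadjusted p under 0.05 were 448 after 1xCHI (2.94%), 365 after 3xCHI (2.40%) and 318 after 5xCHI (2.09%). Single samples moved each of them. Over fits that left out 1 sample each, the 1xCHI count ran from 319 (without sample 28) to 1177 (without sample 36). The 3xCHI count ran from 226 (without sample 38) to 600 (without sample 2). The 5xCHI count ran from 281 (without sample 9) to 851 (without sample 11). DESeq2 called 1 feature within 3xCHI (0.00657%) and 0 within both other injury numbers, while its unadjusted counts for 1, 3 and 5 injuries were 515 (3.38%), 395 (2.59%) and 346 (2.27%). The feature was Bche, butyrylcholinesterase, at -1.57 after 3xCHI (adjusted p = 0.0241 by DESeq2). The interaction of time with injury number gave 0 features with edgeR and 320 at an unadjusted p under 0.05 (2.10%). The latter count ran from 214 to 543 over fits that left out 1 sample each. DESeq2 called 2 (0.0131%) with 394 unadjusted (2.59%). Simulated 1 log2 unit changes confined to the 5xCHI samples were recovered in 53% of genes within 5xCHI and in 29% by the interaction. For changes of 0.5 log2 units these were 16% and 1%.

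Of 9 features with a difference of at least 1 log2 unit, Emp1 and Plin4 are described above, and the others were chosen for naming after their values were seen. They include the small nuclear and signal recognition particle RNAs Rn7sk (1.05, unadjusted p = 0.0271) and Rn7s2 (1.00, unadjusted p = 0.0376), which are RNA polymerase III products. Rn7sk ranged from 1.27 to 21.2 CPM at 4 h and from 1.13 to 10.3 CPM at 24 h. Its level also moved with the sample number, from 5.54 to 17.7 CPM (median 10.2) in the 11 samples numbered 1 to 18 and from 1.13 to 21.2 CPM (median 1.62) in the 9 numbered 19 to 40, where the highest was sample 32. The difference was 0.84 with the number range as a covariate (unadjusted p = 0.0351), 0.36 within samples 1 to 18 and 1.55 within samples 19 to 40. For Rn7s2 these were 0.86, 0.25 and 1.885. The fit within samples 19 to 40 held 2 samples at 4 h, with sample 32 among them.

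The libraries held 16134632 to 26425877 counts, with a median of 18444952 at 4 h and 20884368 at 24 h. Neuronal, astrocytic and oligodendrocyte markers were present in every sample, with Rbfox3 between 260 and 403 CPM. Of 118 tested markers in 15 cell type and region lists, 0 had an unadjusted p under 0.05 between the times. Some lists leaned one way all the same. Neuronal markers were higher at 4 h for 1 of 15 (median -0.061), microglial markers for 1 of 12 (median -0.059) and striatal markers for 1 of 9 (median -0.067), while 9 of 12 astrocyte markers (median 0.024) and 5 of 5 erythroid markers (median 0.10) were higher. Their summed levels overlapped between the times, and their part in the differences of the gene lists was not tested. Single samples stood apart, with choroid plexus marker sums of 1309 CPM in sample 32 (5xCHI, 4 h) and meningeal sums of 677.8 CPM in sample 15 (1xCHI, 4 h). Of the 8 samples at 4 h, 6 were numbered 1 to 18, against 5 of the 12 at 24 h. The first principal component (35.9% of variance) ran from -58 to 4.54 in the former number range and from 3.66 to 32.8 in the latter. What the numbering reflects is not given in the labels. In bulk tissue, fewer cells of a type and less RNA per cell cannot be told apart.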

How the data were processed

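RNA was isolated from left somatomotor cortex with a Qiagen kit per the labels, and an outside provider sequenced and aligned it; the authors deposited 1 table of expected counts per gene (mm10 in the submitters' processing notes; 55539 features, 4.46% of values not whole). The table's column names have the form of Salmon's gene-level output; the version and index are not given in the sources used here. Counts were rounded. Features with under 10 counts in more than 4 of 39 samples were removed, leaving 15224; the study states the same rule but another number of features left, and the gap was not resolved. Time was tested with edgeR 4.0.16 (TMM, quasi-likelihood F test, injury number as block, Benjamini-Hochberg adjusted p), and alternatives included DESeq2 1.42.0 and sva 3.50.0, under R 4.3.3. CPM used TMM over the 39 samples. SE was the log2 difference divided by the root of F. No columns lacked a sample. All 25 same-group pairs differed beyond counting noise (chi-square per gene 6.85 to 130). Gene positions are from GENCODE for GRCm38. Members and lists were chosen with earlier results of these data known. Named genes were the 5 with the smallest p in each direction, the 3 with the smallest p of each list plus members under 0.05, and Gfap, Ptgs2, Arl4d, Fos, Fosb and Npas4; other names illustrate lists. Counts of the gene lists without each sample, and with the number range as a covariate, were added after seeing the data. Fits within the samples numbered 19 to 40 left out 3xCHI, which had no 4 h sample there, and held 2 samples at 4 h. Tests were checked on simulated counts.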

Additional observations from a re-analysis of the deposited data

Results flagged for a closer look

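Samples far from the others of their group were looked for in 280 groups of values, and 19 were found, where about 14 would arise by chance at 1 in 20. At 4 h, sample 16 (1xCHI) was lowest for Dnajb1 at 41.1 CPM, Paqr7 at 59.6 CPM and the astrocyte marker sum at 4427 CPM. Sample 15 (1xCHI) was highest for Dusp1 at 38.2 CPM, for the meningeal fibroblast sum at 677.8 CPM and for the mural sum at 324.4 CPM, and lowest for the hippocampal sum at 128.3 CPM. Sample 32 (5xCHI) was highest for the choroid plexus sum at 1309 CPM, and sample 10 (5xCHI) for the microglial sum at 912.9 CPM.

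At 24 h after 5xCHI, sample 11 was highest for Emp1 at 11.5 CPM (the others 1.45 to 1.91), Gfap at 2417 CPM (113.6 to 190.6), Ggta1 at 14.0 CPM, the astrocyte sum at 8370 CPM and the microglial sum at 1188 CPM, and lowest for the endothelial sum at 236 CPM. At 24 h after 1xCHI, sample 26 was highest for Rgs2 at 48.5 CPM and sample 18 lowest for Srebf1 at 37.1 CPM. At 24 h after 3xCHI, sample 2 was highest for mt-Cytb at 7264 CPM and sample 23 lowest for the endothelial sum at 157.4 CPM.

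The time difference of 2 genes varied with injury number by DESeq2's likelihood ratio test. Nkain2 (adjusted p = 0.00541 by DESeq2) differed between 4 h and 24 h by -0.097 log2 units after 1xCHI, -0.35 after 3xCHI and 0.34 after 5xCHI, and Vat1l (adjusted p = 0.0213 by DESeq2) by 0.22, -0.41 and 0.57. By edgeR the interaction had an adjusted p of 1 for Nkain2 and Vat1l.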

How the results depend on the processing

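No paired analysis was possible because the labels number each sample once across the series, so the groups compared share no replicate number. The count of genes passing pooled over injuries was 0 with edgeR's main design, 2 with DESeq2 (both higher at 4 h), 1 with all 39 samples fitted (higher) and, among fits chosen after seeing the data, 1 within samples numbered 19 to 40 (higher, Hbb-bs). Leaving out 1 sample in turn gave 0 to 2 passing, all higher, with Gm11627 passing without 3xCHI 24 h sample 2, without 5xCHI 24 h sample 11 (then also Smim3) and without 5xCHI 24 h sample 12. After 3xCHI DESeq2 gave 1, after 1xCHI a surrogate variable gave 1 (Mirt1), and the interaction gave 2 with DESeq2. The pooled count at an unadjusted p under 0.05 was 403 in the main design, 261 without 1xCHI 4 h sample 16, 790 without 5xCHI 24 h sample 11, 1000 without 1xCHI 4 h sample 36, and from 288 to 1074 under the other settings. Under the other settings the number of genes passing the adjusted threshold was that of the main design.

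Of the named genes, 6 values passed the threshold, 5 of Gm11627 and 1 of Daam2, and 24 values changed sign, all of genes that did not pass. Arl4d was -0.012 with sample 30 kept. With samples 1 to 18 against 19 to 40 as covariate, Dnaja1 was 0.016, Gfap -0.10 and Arl4d -0.025, and with sample number as covariate they were 0.013, -0.063 and -0.030. Within samples 1 to 18, Dnaja1 was 0.031, Gfap -0.12, Arl4d -0.35 and Fos 0.053, and within samples 19 to 40 Nptx2 was -0.058, Rgs2 -0.030, Irf1 -0.084, Pfkfb3 0.054 and Fosb -0.59. Fosb was -0.17 without samples 10 and 11, which were picked by their Gfap and microglial levels. With 1 sample left out, Arl4d ran from -0.051 to 0.12, Gfap from -0.22 to 0.97, Fosb from -0.15 to 0.37 and Fos from -0.24 to 0.022. The cause was not tested.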
